A study of Rattus norvegicus with 12 samples.

Results

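The 8 genes described here encode interferon-inducible GTPases: the guanylate-binding proteins Gbp1, Gbp2, Gbp4, Gbp5 and Gbp7, and the immunity-related GTPases Irgm, Igtp and Ifi47. They were taken by symbol from tables of 18469 rat genes. Of the 8, 7 had a row under their own symbol, and Gbp7 was found by its gene identifier (685067) under the provisional symbol LOC685067. The libraries came from neonatal rat ventricular myocytes (NRVMs) of Sprague-Dawley rats, primary heart muscle cells kept in a serum-free medium with insulin, transferrin and selenium. The cells were transfected with a negative control siRNA (siNeg) or with siRNA labelled siSlc25a26, which names the mitochondrial carrier of S-adenosylmethionine. Phenylephrine (PE), an adrenergic agonist that makes cardiomyocytes grow, was added 12 h after transfection and left for 36 h in the groups named siNeg.PE and siSlc25a26.PE, and the groups siNeg and siSlc25a26 had none. Groups and times follow the labels, whereas the published methods linked to these data describe an siRNA against another gene, Nap1l5, and other PE times, and this conflict could not be settled here. Each of the 4 groups had 3 libraries, and the 12 libraries held 24770972 to 28709049 estimated counts each. The labels call the replicates independent, but do not say whether they are separate cell preparations, so p-values measure the spread between these libraries.

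Guanylate-binding proteins are large GTPases that assemble on the membranes of pathogens and of the vacuoles that hold them, and several promote inflammasome activation. Immunity-related GTPases act on the same vacuoles. Irgm and Igtp belong to the regulatory branch that sits on the cell's own membranes, and Ifi47 to the effector branch. Both families are low in resting cells and are induced by interferons, through transcription factors that bind GAS and ISRE elements before the genes, IRF1 among them.

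The targeted gene was examined first. Slc25a26 was at 33.3, 31.6 and 29.2 CPM (counts on a common scale of sequencing depth) in siNeg and at 15.8, 14.9 and 14.7 CPM in siSlc25a26, a log2 fold change of -1.08 (SE 0.0798, edgeR adjusted p = 1.08e-05). Under PE it was at 113, 106 and 86.2 CPM in siNeg.PE, and the libraries labelled siSlc25a26.PE held 102, 106 and 98.8 CPM. The log2 fold change there was -0.01 (SE 0.101, adjusted p = 0.969). The targeted gene therefore went with the label without PE and not with PE. The comparison without PE uses none of the siSlc25a26.PE libraries, and every other comparison that names siSlc25a26 below rests on them. Nppa, the natriuretic peptide gene that PE induces in myocytes, was at 111 to 130 CPM in siNeg, at 2417 to 3409 CPM in siNeg.PE, 196 to 331 CPM in siSlc25a26 and 5954 to 6332 CPM in siSlc25a26.PE.

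The cardiomyocyte markers (10 genes, Myh6 to Pln) summed to 36700 to 40700 CPM in siSlc25a26 and 38300 to 39900 CPM in siNeg, and to 79500 to 85300 CPM in siSlc25a26.PE and 61000 to 67800 CPM in siNeg.PE. The fibroblast markers summed to between 25100 and 27900 CPM in siNeg, between 13400 and 13900 CPM in siNeg.PE, between 14700 and 16600 CPM in siSlc25a26 and between 10400 and 11500 CPM in siSlc25a26.PE. The cultures therefore held RNA of fibroblast genes beside that of myocytes. Single abundant genes weigh heavily in these sums: Actc1 alone had a mean of 19860 CPM in siNeg.PE and 31670 CPM in siSlc25a26.PE. Between those groups, 1 of the 10 cardiomyocyte markers was called higher (defined below) and 0 lower. Of the fibroblast markers, 1 was called higher and 4 lower, where 7.71% and 8.1% of all genes tested were. Between siSlc25a26 and siNeg without PE, 0 of the 10 fibroblast markers were called higher and 7 lower. Of the cardiomyocyte markers, 0 were called higher and 1 lower there, where 8.92% and 7.2% of all genes tested were. In such bulk samples, fewer cells of a type and less RNA per cell cannot be told apart.

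The sequence before each gene was read from RefSeq promoter windows, which cover 250 bases before and 50 bases after a transcript start on the rat build GRCr8. The deposited values rest on an older build, and no coordinate of that build is given here. All 8 genes had a window, and Gbp1 had another at a downstream start. The windows were searched on both strands for TTCNNNGAA, the GAS consensus, and for GAAANNGAAA, the core of an ISRE. A GAS match was present in 8.87% of all 33469 rat windows, an ISRE core match in 3.92% and both in 0.514%. Of the 8 genes, 7 had an ISRE core match and 4 had a GAS match. Gbp1, Gbp2, Gbp4 and Gbp5 had the ISRE core without a GAS, Ifi47 had 2 GAS matches without an ISRE core, and Gbp7, Irgm and Igtp had both. For Gbp1 all 3 matches lay in the downstream window, with 2 of them overlapping, and the upstream window held none. Such matches are descriptions of these letters and not measured binding.

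The 3 genes with the closest arrangement are printed first: Igtp (chr10:42874897-42875046, plus strand), Irgm (chr10:33742579-33742728, minus strand) and Irgm2, the next gene after Igtp and a further member of the same family (chr10:42889820-42889969, plus strand). Each line gives bases -150 to -1 before the transcript start, 5′ to 3′, with the GAS and ISRE core matches in capitals.
Igtp: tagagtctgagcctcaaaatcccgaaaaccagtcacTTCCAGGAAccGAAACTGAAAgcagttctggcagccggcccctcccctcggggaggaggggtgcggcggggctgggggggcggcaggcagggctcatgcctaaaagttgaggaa
Irgm: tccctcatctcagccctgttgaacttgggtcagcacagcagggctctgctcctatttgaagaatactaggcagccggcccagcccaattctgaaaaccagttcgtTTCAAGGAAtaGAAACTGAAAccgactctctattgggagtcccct
Irgm2: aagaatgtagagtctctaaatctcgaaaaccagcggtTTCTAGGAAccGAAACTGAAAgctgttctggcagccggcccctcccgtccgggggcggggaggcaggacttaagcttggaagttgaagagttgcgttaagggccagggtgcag
In all 3, a GAS was followed after 2 bases by the ISRE core. This spacing was seen in these windows and then counted: 8 of the 33469 windows (0.0239%) held a GAS and an ISRE core 2 bases apart, those of Igtp, Irgm, Irgm2, Parp14, Ifgga2l2, Agr2, Stra8 and LOC134480693, a non-coding RNA gene next to Igtp. The pair lay at -114 to -94 in Igtp, -113 to -93 in Irgm2 and -45 to -25 in Irgm. Of the other relatives described below, Gbp6 and Igtpl1, both called higher in siSlc25a26, and Irgq, which was not called, had windows with no match to either motif. The windows of the neighbours Igtp and Irgm2 also shared a run of 22 bases, gttctggcagccggcccctccc.

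Gbp5 and Gbp7, which are adjacent on chromosome 2, and Gbp1 are printed next, because Gbp5 and Gbp7 share the surroundings of their ISRE core and Gbp1 was the gene with the largest change. The stretches are chr2:233910849-233910998, chr2:233948739-233948888 and chr2:234072287-234072436, all on the plus strand, with the same positions and capitals.
Gbp5: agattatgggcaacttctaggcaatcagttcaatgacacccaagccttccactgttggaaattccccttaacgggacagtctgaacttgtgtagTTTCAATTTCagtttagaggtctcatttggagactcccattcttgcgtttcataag
Gbp7: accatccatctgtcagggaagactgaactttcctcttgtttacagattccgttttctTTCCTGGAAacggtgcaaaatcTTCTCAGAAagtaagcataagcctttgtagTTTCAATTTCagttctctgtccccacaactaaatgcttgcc
Gbp1: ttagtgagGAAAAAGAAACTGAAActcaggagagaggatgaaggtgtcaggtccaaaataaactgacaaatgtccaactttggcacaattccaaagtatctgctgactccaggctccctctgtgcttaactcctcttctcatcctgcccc
Gbp5 and Gbp7 shared a run of 19 bases around the match, tgtagTTTCAATTTCagtt. The ISRE core lay at -56 to -47 in Gbp5 and at -41 to -32 in Gbp7, and Gbp7 had GAS matches at -93 and -71. RefSeq gene records reach upstream of the start used here by 1071 bases in Gbp1, 115 in Gbp7, 142 in Irgm and 51 in Irgm2, so the printed bases of these genes can lie inside another transcript.

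**Figure D1:**
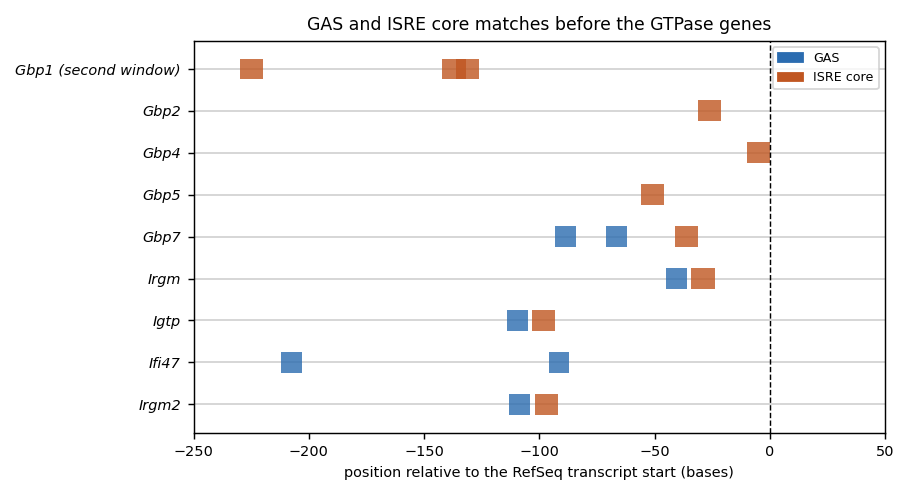
GAS and ISRE core matches in the RefSeq promoter windows of the 8 genes and Irgm2, drawn to scale. The x axis is the distance in bases from the transcript start (dashed line), each row is a gene, and blocks are matches; Igtp, Irgm and Irgm2 show a GAS directly beside an ISRE core.

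Without PE, all 8 genes were higher in siSlc25a26 than in siNeg, by between 17.3-fold and 144-fold. A gene was called where its fold change exceeded 1.5 and its adjusted p was under 0.05 in edgeR's quasi-likelihood test over all genes tested. In this comparison 8.92% of the 13829 genes tested were called higher. The median log2 fold change of the 8 was 4.87, and that of all genes was 0.01. In all 8 the lowest siSlc25a26 library lay above the highest siNeg library, as it did for 31.6% of all genes tested. Folds come from the counts. Levels are given as FPKM, which divides by gene length and so can be compared between genes.

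Gbp1, a guanylate-binding protein that is itself a standard marker of interferon exposure, moved furthest. It was at 1.00, 1.65 and 1.98 FPKM in siNeg and at 253, 237 and 209 FPKM in siSlc25a26. The groups lie far apart, with siNeg replicate 1 the lowest of its group. The log2 fold change was 7.17 (SE 0.174, adjusted p = 4.41e-09).

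Gbp2, which targets bacteria and their vacuoles, was at 3.17, 3.52 and 3.21 FPKM in siNeg and at 84.0, 75.7 and 76.2 FPKM in siSlc25a26. The log2 fold change was 4.52 (SE 0.0736, adjusted p = 5.77e-10). Gbp5, which promotes assembly of the NLRP3 inflammasome, was at 3.41, 3.6 and 3.37 FPKM in siNeg and at 69.2, 63.4 and 69.2 FPKM in siSlc25a26. The libraries of each group lay close together, and the log2 fold change of Gbp5 was 4.23 (SE 0.0692, adjusted p = 5.77e-10).

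Gbp4 and Gbp7 were the least abundant of the 5 guanylate-binding proteins in both groups. Gbp4 was at 0.14, 0.21 and 0.14 FPKM in siNeg, from 10, 13 and 9 counts, and at 16.5, 14.1 and 13.2 FPKM in siSlc25a26. Its log2 fold change was 6.49 (SE 0.162, adjusted p = 5.18e-09), and 3.74 with limma on log2(FPKM + 1). Its estimated counts were not whole in 5 of 12 libraries, so reads may be shared with another sequence and its values are less certain. That was not tested. Gbp7, a relative linked to oxidative killing and autophagy of microbes, was at 0.53, 0.63 and 0.69 FPKM in siNeg and at 21.4, 18.1 and 17.5 FPKM in siSlc25a26, with a log2 fold change of 4.86 (SE 0.121, adjusted p = 5.18e-09).

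The immunity-related GTPases rose as well. Irgm, the regulator that guards the cell's own membranes, was at 3.03, 3.27 and 2.14 FPKM in siNeg and at 90.7, 82.7 and 84.6 FPKM in siSlc25a26. The log2 fold change was 4.88 (SE 0.126, adjusted p = 6.1e-09). Igtp, a regulator found on the endoplasmic reticulum and lipid droplets, was at 4.57, 5.09 and 5.04 FPKM in siNeg and at 87.6, 87.8 and 89.1 FPKM in siSlc25a26. It had the smallest fold of the 8, with a log2 fold change of 4.11 (SE 0.0618, adjusted p = 5.77e-10). Its counts were not whole in 11 of 12 libraries, and their fractions complement those of its neighbour Irgm2. Reads were thus divided between both genes, as described below for Irgm2. Ifi47, the effector, was at 1.32, 1.05 and 0.55 FPKM in siNeg and at 86.0, 76.7 and 73.4 FPKM in siSlc25a26. The siNeg libraries of Ifi47 ran from 0.55 to 1.32 FPKM and did not come near those of siSlc25a26, and its log2 fold change was 6.27 (SE 0.181, adjusted p = 1.34e-08).

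**Figure D2:**
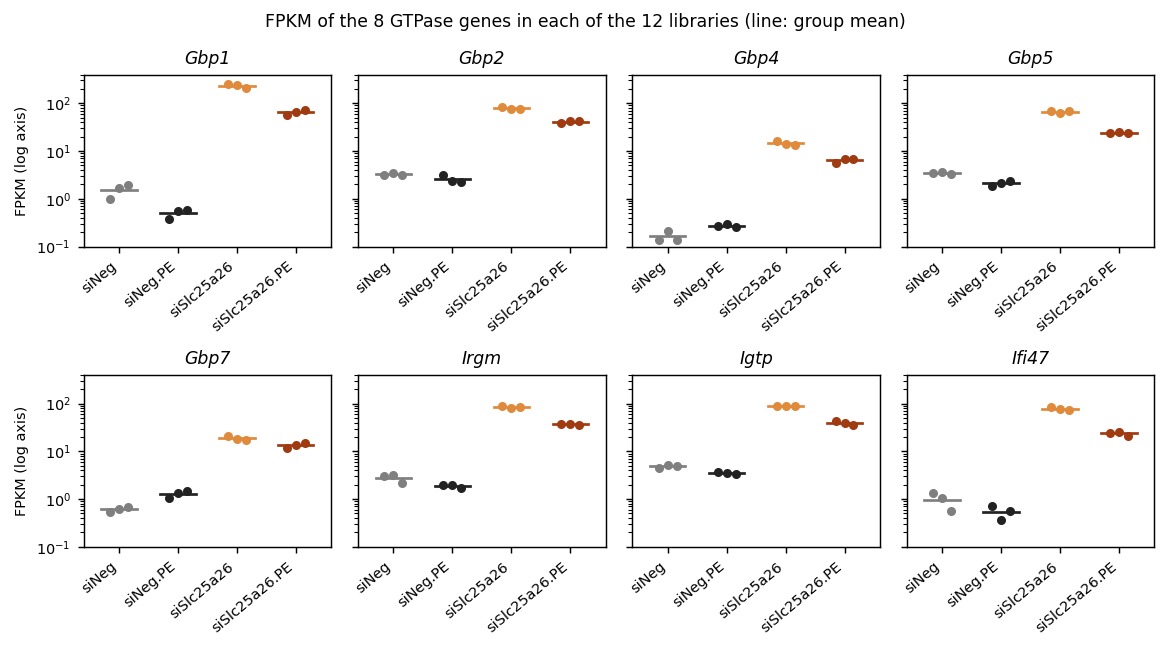
FPKM of the 8 genes in the 12 libraries on a log axis; points are libraries and lines are the means of 3 libraries in each of the 4 groups. In every panel the siSlc25a26 and siSlc25a26.PE libraries lie above all siNeg and siNeg.PE libraries, from 5.69 FPKM for Gbp4 in siSlc25a26.PE to 253 FPKM for Gbp1 in siSlc25a26.

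The order of the genes by FPKM differed between the groups. In siNeg, Igtp led with 4.90 ± 0.287 FPKM (SD, n = 3). Gbp5, Gbp2 and Irgm followed at means of 3.46, 3.30 and 2.81 FPKM, with libraries that overlapped from each gene to the next. Then came Gbp1, Ifi47 and Gbp7 at means of 1.54, 0.97 and 0.62 FPKM, also overlapping from each to the next, and Gbp4 was last at 0.16 FPKM. In siSlc25a26, Gbp1 led with 233 ± 22.4 FPKM and did not overlap the next gene. Igtp, Irgm, Ifi47 and Gbp2 lay between means of 78.6 and 88.2 FPKM, each overlapping the next. Below them stood Gbp5 at 67.3, Gbp7 at 19.0 and Gbp4 at 14.6 FPKM, with no overlap.

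The 8 genes together summed to 17.8 ± 1.08 FPKM in siNeg and 665 ± 39.2 FPKM in siSlc25a26. Gbp1 took 8.69% of that sum in siNeg and 35.0% in siSlc25a26. Igtp took 27.6% in siNeg and 13.3% in siSlc25a26.

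**Figure D3:**
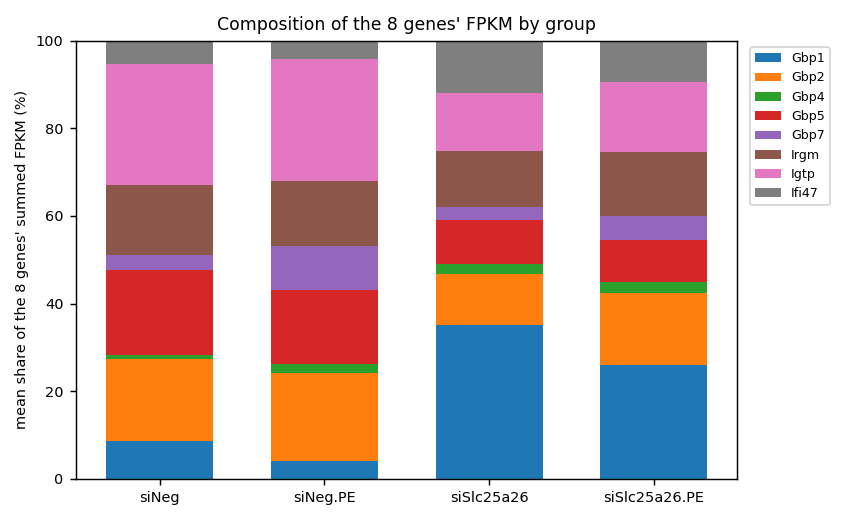
Mean share (%) of the summed FPKM of the 8 genes taken by each gene in the 4 groups of 3 libraries; bars stack to 100. The Gbp1 block is 8.69% in siNeg, 3.95% in siNeg.PE, 35.0% in siSlc25a26 and 26.0% in siSlc25a26.PE.

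Under PE, all 8 genes were higher in the libraries labelled siSlc25a26.PE than in siNeg.PE, by between 10.8-fold and 135-fold. In this comparison 7.71% of the 13671 genes tested were called higher, and for 26.9% the siSlc25a26.PE libraries lay wholly above the siNeg.PE libraries, as they did for all 8. The median log2 fold change was 4.19 over the 8 and 0.00 over all genes. These directions rest on libraries in which Slc25a26 itself was not lower.

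Gbp1 again had the largest change. It was at 0.38, 0.55 and 0.58 FPKM in siNeg.PE and at 57.5, 64.5 and 73.4 FPKM in siSlc25a26.PE, a log2 fold change of 7.08 (SE 0.144, adjusted p = 4.31e-09). Ifi47 was at 0.71, 0.36 and 0.56 FPKM in siNeg.PE and at 24.8, 25.8 and 21.3 FPKM in siSlc25a26.PE, with a log2 fold change of 5.52 (SE 0.179, adjusted p = 4.46e-08). The groups of both genes were widely separated.

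Gbp4 was at 0.27, 0.29 and 0.26 FPKM in siNeg.PE and at 5.69, 6.81 and 6.77 FPKM in siSlc25a26.PE, a log2 fold change of 4.68. Gbp7 was at 1.07, 1.33 and 1.46 FPKM in siNeg.PE and at 11.5, 13.4 and 14.97 FPKM in siSlc25a26.PE, a log2 fold change of 3.43, the smallest of the 8 here. On the log2 scale, both differences from the control were smaller with PE than without, as they were for all of the 8. The fold changes of Gbp2, Gbp5, Irgm and Igtp were 4.04, 3.58, 4.35 and 3.55 on the log2 scale, with adjusted p-values of 5.18e-08 or below.

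The levels of those 4 genes under PE were as follows. Igtp was at 3.74, 3.56 and 3.39 FPKM in siNeg.PE and at 42.6, 40.1 and 36.4 FPKM in siSlc25a26.PE. Gbp2 was at 3.18, 2.35 and 2.26 FPKM in siNeg.PE and at 38.4, 42.2 and 41.6 FPKM in siSlc25a26.PE. Irgm was at 1.98, 1.98 and 1.69 FPKM in siNeg.PE and at 37.2, 37.5 and 35.5 FPKM in siSlc25a26.PE. By their means in siSlc25a26.PE the order was Gbp2, Igtp and Irgm, and in it these 3 overlapped from each gene to the next. They lay below Gbp1 and above Gbp5, which was at 1.87, 2.19 and 2.36 FPKM in siNeg.PE and at 23.7, 25.5 and 23.99 FPKM in siSlc25a26.PE. Gbp7 and Gbp4 were the lowest in siSlc25a26.PE, whereas in siNeg.PE Gbp7 ranked above Ifi47 and Gbp1.

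**Figure D4:**
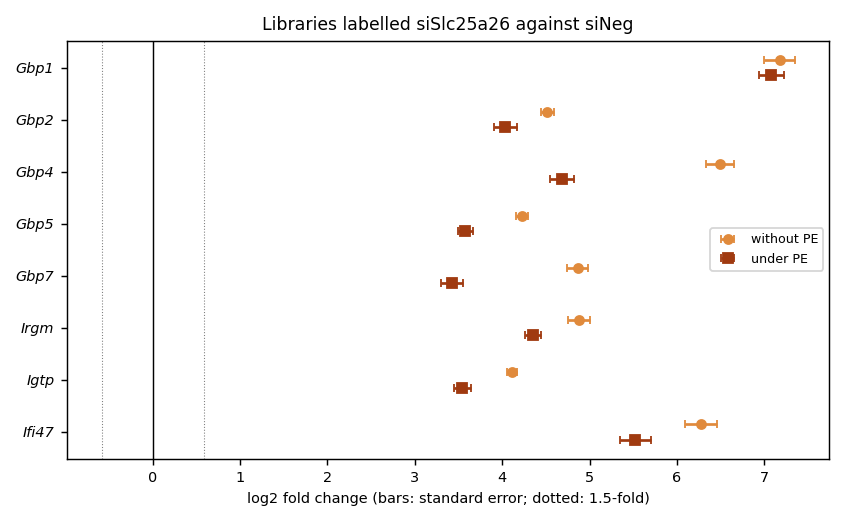
Log2 fold changes of the 8 genes between the libraries labelled siSlc25a26 and siNeg, without PE (circles) and under PE (squares), 3 libraries a group; bars are standard errors and dotted lines mark a 1.5-fold change. All points lie right of 3, from 3.43 for Gbp7 under PE to 7.17 for Gbp1 without PE.

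PE itself was compared within each siRNA group. The comparison in siNeg and the comparison of siSlc25a26 with siNeg share the siNeg libraries, and the comparison in siSlc25a26 shares its libraries with both siRNA comparisons. Values here are CPM, the scale of the fit.

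In siNeg, PE moved the genes in both directions. Of the 8, Gbp4 and Gbp7 were called higher, where 12.4% of the 13719 genes tested were, and Gbp1 and Gbp5 were called lower, where 8.24% were. Gbp1 went from 4.23 ± 1.34 CPM to 1.42 ± 0.267 CPM (SD, n = 3), and its log2 fold change was -1.58 (SE 0.277, adjusted p = 0.00233). Gbp5 went from 9.08 ± 0.302 CPM to 5.84 ± 0.59 CPM, a log2 fold change of -0.65 (SE 0.115, adjusted p = 0.00249). In both genes the siNeg.PE libraries lay wholly below the siNeg libraries, as they did for 29.2% of all genes tested.

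Gbp7 rose: its siNeg libraries held 1.81, 2.06 and 2.33 CPM and its siNeg.PE libraries 3.86, 4.59 and 4.87 CPM, a log2 fold change of 1.09 (SE 0.166, adjusted p = 0.0012). Gbp4 was at 0.36, 0.50 and 0.33 CPM in siNeg and at 0.69, 0.74 and 0.68 CPM in siNeg.PE. Its log2 fold change was 0.80 (SE 0.292, adjusted p = 0.0499), from at most 19 counts in a library. The call of Gbp4 was lost when any of the 6 libraries was left out (adjusted p from 0.0535 to 0.142) and with DESeq2 (adjusted p = 0.228).

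The other 4 genes had lower means with PE and were not called. Irgm had a log2 fold change of -0.53 (adjusted p = 0.0394) and Igtp of -0.42 (adjusted p = 0.0101), both under the 1.5-fold threshold. Gbp2 was at -0.30 (adjusted p = 0.128) and Ifi47 at -0.80 (adjusted p = 0.109), with overlapping libraries. Without siNeg replicate 3, which was the lowest of its group for both genes, Irgm was at -0.70 (adjusted p = 0.00602) and Ifi47 at -1.08 (adjusted p = 0.021), and both passed. Without siNeg.PE replicate 1, Gbp5 was at -0.56 and no longer passed, which with Gbp4 left 2 genes called.

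In the libraries labelled siSlc25a26, PE went with lower values in all 8 genes, and 7 were called lower, where 10.4% of the 13776 genes tested were. The median log2 fold change of the 8 was -1.03 and that of all genes 0.00. Gbp1 fell from 620.1 ± 55.4 CPM to 194 ± 21.3 CPM, a log2 fold change of -1.66 (SE 0.093, adjusted p = 1.45e-06). Ifi47 fell from 135 ± 10.6 CPM to 46.0 ± 4.85 CPM, a log2 fold change of -1.54 (SE 0.0849, adjusted p = 1.35e-06). These were the largest changes of the 8.

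Gbp5 fell from 173 ± 9.38 CPM to 70.2 ± 2.55 CPM, a log2 fold change of -1.29 (SE 0.0575, adjusted p = 4.18e-07). Irgm, Gbp4, Igtp and Gbp2 followed with log2 fold changes of -1.05, -1.003, -0.98 and -0.77, all with adjusted p-values of 3.93e-05 or below. Gbp7 was the exception. It was at 68.9, 58.0 and 57.0 CPM in siSlc25a26 and at 42.3, 48.5 and 53.6 CPM in siSlc25a26.PE. Its log2 fold change of -0.34 (SE 0.103, adjusted p = 0.022) stayed under the 1.5-fold threshold. The siSlc25a26.PE libraries lay wholly below the siSlc25a26 libraries, as they did for 31.5% of all genes tested.

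The difference between both PE effects was tested as an interaction over all 12 libraries. It was called lower, meaning a more negative PE effect with the siSlc25a26 label, for Gbp4, Gbp5 and Gbp7, where 3.34% of the 14097 genes tested were. The difference was -1.83 for Gbp4 (SE 0.253, adjusted p = 0.00101), -1.45 for Gbp7 (SE 0.189, adjusted p = 0.000713) and -0.66 for Gbp5 (SE 0.105, adjusted p = 0.00218) on the log2 scale. For Gbp4 and Gbp7 the PE effect had opposite signs in the siRNA groups, and for Gbp5 it was negative in both.

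Igtp had a difference of -0.58 (SE 0.111, adjusted p = 0.00566), just under the 1.5-fold threshold, and Gbp2 of -0.50 (SE 0.148, adjusted p = 0.049). Irgm was at -0.55 (adjusted p = 0.0582) and Ifi47 at -0.77 (adjusted p = 0.189). Gbp1 was at -0.11 (SE 0.308, adjusted p = 0.855), a standard error near that of Ifi47 (0.353) and above those of the other 6, which limits what could be seen for it. Without siNeg replicate 2, or without siNeg.PE replicate 3, 5 of the 8 passed: Irgm and Igtp joined in the first case (differences of -0.67 and -0.61), and Gbp2 and Igtp in the other (-0.59 and -0.62).

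**Figure D5:**
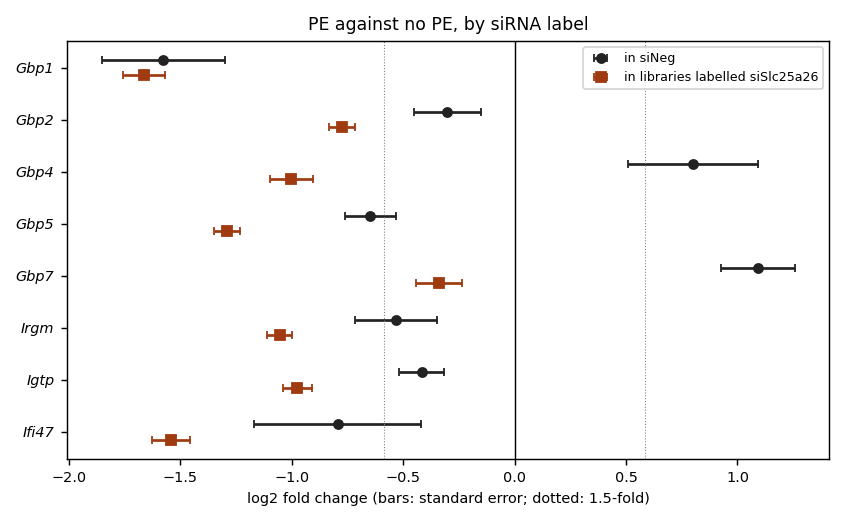
Log2 fold changes for PE against no PE in siNeg (circles) and in the libraries labelled siSlc25a26 (squares), 3 libraries a group; bars are standard errors and dotted lines mark a 1.5-fold change. Gbp4 and Gbp7 lie at 0.80 and 1.09 in siNeg and at -1.003 and -0.34 in siSlc25a26, and Gbp1 lies at -1.58 and -1.66.

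The remaining genes of both families were taken from a list of 19 names, of which 7 had a row. Of the 5 that could be tested, 3 were called higher in siSlc25a26 without PE and the same 3 under PE. Over all genes tested, 8.92% and 7.71% were called higher in these comparisons. Irgm2, a regulatory GTPase next to Igtp, was at 7.43, 7.86 and 6.74 FPKM in siNeg and at 179, 167 and 178 FPKM in siSlc25a26. These values lay above those of Igtp in both groups. The fractions of the Igtp and Irgm2 counts complement each other to whole numbers, as with 249.65 and 698.35 in siNeg replicate 1. Reads were thus divided between both genes, and their levels and order depend on that division, whose effect was not tested. The log2 fold change of Irgm2 was 4.53 without PE and 3.78 under PE. RGD1309362, which carries no descriptive name in the tables, had log2 fold changes of 4.36 and 3.40, and Gbp6, a guanylate-binding protein encoded outside the chromosome 2 cluster, of 2.29 and 2.06. In the interaction, Irgm2 (-0.76, adjusted p = 0.000641) and RGD1309362 (-0.98, adjusted p = 0.0331) were called lower.

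The immunity-related GTPase relatives Irgq and Irgc were not called. Irgq had log2 fold changes of -0.22 (adjusted p = 0.0313) without PE and -0.09 (adjusted p = 0.394) under PE, and Irgc of -0.41 (adjusted p = 0.481) and 0.52 (adjusted p = 0.307). Gbp3 and Gvin1 held at most 2 counts in any library and were not tested. Of 12 further listed genes outside these families, 4 were called higher without PE, where 8.92% of all genes tested were. Named here after their values were seen, they were the antiviral dynamin relatives Mx1 (8.44) and Mx2 (6.69), the interferon-inducible ubiquitin ligase Rnf213 (3.95) and the atlastin Atl2 (0.66). Atl2 was not called under PE (0.36, adjusted p = 0.0125).

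The genes next to the 8 in the GRCr8 order were examined. On chromosome 2, Gbp5, Gbp7, Gbp4, Gbp2 and Gbp1 follow each other in this order, followed further on by Gbp3. Pdlim5, a Z-disc protein gene before Gbp5, had a log2 fold change of -0.12 (adjusted p = 0.175) without PE. On chromosome 10, Irgm and Ifi47 lie close to each other with RGD1559575 between them, which had 4 counts in each siNeg library and 18, 14 and 18 in siSlc25a26 and was called higher from these low counts (log2 fold change 1.88, adjusted p = 0.00385). Igtp lies between Igtpl1 and Irgm2. Igtpl1 (LOC102555634 in the tables) was at 11, 11 and 10 counts in siNeg and at 1287, 1181 and 1148 counts in siSlc25a26, a log2 fold change of 6.65 (SE 0.122, adjusted p = 8.25e-10). Mrpl22, the mitochondrial ribosomal protein gene beyond Igtpl1, was at 0.42 (adjusted p = 0.00313) and under the 1.5-fold threshold. Most other neighbours had no row.

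The genes that act before the 8 were described from lists of the same pathway. Of 11 transcription factors, 8 were called higher in siSlc25a26 without PE, where 8.92% of all genes tested were. Under PE 8 were called higher, where 7.71% of all genes tested were. Irf1, a direct activator of the GBP cluster, was at 12.7, 12.4 and 13.2 FPKM in siNeg and at 57.1, 51.3 and 52.0 FPKM in siSlc25a26. Its log2 fold changes were 2.01 without PE and 1.30 under PE, and those of Irf7, the factor that amplifies type I interferon, were 6.12 and 6.77. Batf2, a partner of Irf1, was at 1 or 2 counts in every siNeg and siNeg.PE library, at 134 to 187 counts in siSlc25a26 and at 79 to 99 counts in siSlc25a26.PE. It thus passed the count filter only through the libraries with the siSlc25a26 label.

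Of 10 receptor, kinase and feedback genes, 3 were called higher without PE, where 8.92% of all genes tested were. They were Usp18 (4.95), which shuts off the type I receptor, Socs1 (2.68), an inhibitor of Janus kinases, and Jak2 (0.94). Under PE, Usp18 (4.87) and Socs1 (1.66) were called higher, where 7.71% of all genes tested were. The 4 interferon receptor chains Ifnar1, Ifnar2, Ifngr1 and Ifngr2 were not called, with changes under the 1.5-fold threshold. In all 4 the siSlc25a26 libraries lay wholly above the siNeg libraries, as they did for 31.6% of all genes tested. The same held under PE, where 26.9% of all genes did so. Ifnb1, which encodes interferon beta, held 1, 0 and 0 counts in siNeg, no count in siNeg.PE, 50, 53 and 55 counts in siSlc25a26 and 4, 7 and 7 counts in siSlc25a26.PE. Ifng, which encodes interferon gamma, had no row.

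Of the same 11 factors, 6 were called lower with PE in the siSlc25a26 libraries, where 10.4% of all genes tested were. Irf1 changed by -1.23 in siSlc25a26 and -0.53 in siNeg on the log2 scale, and its difference of -0.72 (adjusted p = 0.00253) was called, alone among the 11 factors. Ifnb1 had a log2 fold change of -2.90 for PE in siSlc25a26.

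Among 18 other interferon-gamma targets, 14 were tested without PE, of which 9 were called higher and 1 lower. Over all genes tested, 8.92% were called higher and 7.20% lower. The 4 not called included Fcgr1a, at means of 1.35 CPM in siNeg and 1.36 CPM in siSlc25a26, and Serpina3n, at 2.04 and 1.62 CPM. Cxcl9, RT1-Ba and RT1-Da passed the count filter only through the siSlc25a26 libraries. Under PE 11 were tested, of which 6 were called higher and 1 lower, where 7.71% and 8.10% of all genes were. The largest rises were those of the chemokine Cxcl10 (5.34 and 4.94 on the log2 scale) and the immunoproteasome subunit Psmb8 (4.76 and 4.80). The lower gene in both was Cd74, the class II invariant chain, at -1.26 and -2.08. It is abundant in macrophages, whose 10 markers summed to 110 to 131 CPM in siNeg and 57.1 to 66.3 CPM in siSlc25a26. Of 8 markers tested there, 6 were called lower. The sums were 59.7 to 67.4 CPM in siNeg.PE and 39.9 to 46.4 CPM in siSlc25a26.PE. Between those groups, 2 of 7 markers tested were called lower. The part of macrophage RNA in these values was not tested. Lyz2 alone made up most of the macrophage sum, at a mean of 89.2 CPM in siNeg and 44.1 CPM in siSlc25a26. Whether the make-up of the cultures bears on the 8 GTPase genes was not tested.

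Partners of these GTPases in inflammasome and cell death pathways were called higher in 8 of 13 tested without PE and 6 of 10 under PE. Over all genes tested, 8.92% and 7.71% were called higher. Without PE, Zbp1, Aim2, Casp1 and Ubd passed the count filter only through the siSlc25a26 libraries, where they were higher. For such genes, being tested and being called higher go together. Zbp1, a nucleic acid sensor that triggers necroptosis, held at most 2 counts in siNeg and siNeg.PE libraries, 375 to 579 in siSlc25a26 and 76 to 92 in siSlc25a26.PE. Aim2, the DNA sensor of an inflammasome that GBPs feed with bacterial DNA, held at most 1 count in siNeg and siNeg.PE libraries, 102 to 122 in siSlc25a26 and 41 to 53 in siSlc25a26.PE.

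Genes that load these GTPases onto membranes were mostly not called. The conjugation machinery of autophagy helps to direct GBPs and IRGs to vacuoles. Of 14 autophagy genes, edgeR called 1 higher without PE (Atg12, 0.62), where 8.92% of all genes tested were, and 0 under PE. An unadjusted p under 0.05 was seen for 9 of the 14 without PE and for 8 under PE. DESeq2 and limma-voom each called 1 without PE and 0 under PE. Of 7 prenylation genes, whose enzymes lipidate several GBPs, edgeR called 0 in both comparisons. Unadjusted p-values under 0.05 were found for 5 of them without PE and 3 under PE, DESeq2 called 1 without PE and 0 under PE, and limma-voom called 0 in both. T and NK cells, which make interferon gamma, had 4 of 9 markers with a row. Their sum was at most 0.267 CPM in siNeg and 2.42 to 3.85 CPM in siSlc25a26, and Klrk1 accounted for most of it, with 110, 73 and 97 counts. Cd3e was at 0 in all siSlc25a26 libraries and Prf1 held at most 1 count.

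The genes most like the 8 were sought by Pearson's r between a gene's log2 CPM and the mean of the 8 over the 12 libraries. The 5 highest among 14089 genes were the class I histocompatibility genes RT1-T24-3 (0.999) and RT1-T24-4 (0.998), Rnf213 (0.999), Phf11 (0.999) and Ifi44 (0.999). In the 8 genes the libraries separate by siRNA label, 585 genes had r above 0.9, and the value is given as a description only. Among the 8 themselves, r with the mean of the others was lowest for Gbp7 (0.965) and 0.998 each for Igtp, Gbp2 and Irgm.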

How the data were processed

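Estimated counts per gene and FPKM (fragments per kilobase of gene, scaled to depth) were deposited as 2 tables of 18469 genes and 12 libraries. The submitters' processing notes name HISAT, Bowtie2 and the build Rnor_6.0. The tool that made the estimated counts and the strand setting are not given in the sources used here. FPKM was computed by the authors, and its exact formula is also not given in these sources. No sample column was left unused (0 columns).

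The deposited estimated counts were rounded to whole numbers, filtered with filterByExpr, scaled by TMM and tested with edgeR 4.0.16 (glmQLFit, glmQLFTest) in R 4.3.3, over the 6 libraries compared, or over all 12 for the interaction. Adjusted p-values are Benjamini-Hochberg values over all genes tested, and CPM were TMM-scaled. Calls needed a fold change above 1.5, after the threshold the study's methods name, and an adjusted p under 0.05. The procedure was tested on simulated data. A count of 3 corresponds to 0.0993 to 0.12 CPM, a floor that covers counting error only.

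The 8 genes, the lists and the tests were chosen with earlier results of these data known. Named genes are the 8, all other listed family members, the 2 largest changes called per pathway list, Ifng, Ifnb1, Irf1, the checks Slc25a26 and Nppa, the 5 most similar genes and the neighbours in gene order; 1 further gene of the rule is not reported here. Names, gene order and promoters came from RefSeq on GRCr8, where 16962 gene IDs (91.8%) matched. No replicates were alike within sampling noise (smallest chi-square per gene between replicates 5.34). Replicate numbers were not treated as pairs in the main fits. Alternatives were DESeq2 1.42.0, limma 3.58.1 (voom, and log2(FPKM + 1) or log2(FPKM + 0.1)), DESeq2 size factors, 2 other count filters, the replicate block, a joint fit, no fold threshold and leaving out each library.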

Additional observations from a re-analysis of the deposited data

Results flagged for a closer look

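For 3 of the 8 genes the effect of PE differed between the siRNA groups by the interaction test over all 12 libraries. The PE effect in the libraries labelled siSlc25a26 minus that in siNeg was -1.83 on the log2 scale for Gbp4 (edgeR adjusted p = 0.00101), -1.45 for Gbp7 (adjusted p = 0.000713) and -0.66 for Gbp5 (adjusted p = 0.00218). For Gbp4 the value rests on 9 to 19 counts in each siNeg and siNeg.PE library. All 3 values rest on siSlc25a26.PE libraries, in which Slc25a26 was not lower than in siNeg.PE.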

How the results depend on the processing

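In the siRNA comparisons and for PE in siSlc25a26, none of the 8 genes changed its direction or its call under the alternatives run, except that Gbp7 for PE in siSlc25a26 was called when no fold threshold was used, and that a filter of at least 10 counts in every library left Gbp4 out without PE. Fold sizes did move: with limma on log2(FPKM + 1) all 8 were smaller in both siRNA comparisons, by most for Gbp4 without PE (3.74 against 6.49 on the log2 scale) and under PE (2.54 against 4.68), and Gbp1 and Ifi47 under PE were 5.45 and 4.02 against 7.08 and 5.52. For PE in siNeg, 1 gene was called with limma on log2(FPKM + 1), and 2 to 5 when a library was left out, against 4. For the difference of the PE effects, 8 genes were called with limma on log2(FPKM + 1), 6 on log2(FPKM + 0.1) and 5 without a fold threshold, against 3, and 2 with at least 10 counts in every library, which left Gbp4 out. On the FPKM scales the median of all genes was -0.11 and -0.14 there, and -0.13 and -0.17 for PE in siSlc25a26. Leaving out a library gave 3 to 5 calls. Without siNeg replicate 1 the difference of the PE effects for Gbp1 turned to 0.12 from -0.11, and over all left-out libraries it lay between -0.33 and 0.12. The cause of these changes was not tested. Low counts limit the siNeg groups most, above all for Gbp4.

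With the replicate number as a replicate block, 8, 8, 4, 7 and 3 genes were called in the comparisons without PE, under PE, for PE in siNeg, for PE in siSlc25a26 and for the difference. For PE in siNeg, 1 was then higher and 3 lower, since Gbp4 lost its call (adjusted p = 0.0665) and Ifi47 gained one (-0.77, adjusted p = 0.0493). Deviations of same-numbered libraries correlated between -0.11 and 0.36, and in no comparison were all pairs above 0.1. Replicates 1 and 3 had values of 0.307 and 0.361 for PE in siNeg, and of 0.319 and 0.241 for the siRNA comparison under PE. Whether same-numbered libraries share a cell preparation cannot be told from these values, with 3 libraries a group.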

Other observations

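Across the 4 groups, the summed FPKM of the 8 genes was 17.8 ± 1.08 in siNeg, 12.8 ± 0.356 in siNeg.PE, 665 ± 39.2 in siSlc25a26 and 250 ± 7.81 in siSlc25a26.PE (SD, n = 3 each). Gbp7, the gene whose profile was least like that of the others, took 3.48% of the sum in siNeg, 10.1% in siNeg.PE, 2.84% in siSlc25a26 and 5.31% in siSlc25a26.PE. Ifna4, an interferon alpha gene singled out after its values were seen, held no count in siNeg and siNeg.PE libraries, 23, 11 and 9 counts in siSlc25a26 and 1, 1 and 2 counts in siSlc25a26.PE.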
